A study of Mus musculus with 7 samples.

Results

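Inward rectifier potassium channels let potassium into a cell more easily than out of it and hold the resting membrane potential near the potassium equilibrium. The 8 genes described here are Kcnj2, Kcnj3, Kcnj4, Kcnj6, Kcnj9, Kcnj11 and Kcnj16, which encode channel subunits, and Abcc8, which encodes the sulfonylurea receptor SUR1. They were taken by name as the inward rectifier and ATP-sensitive potassium channel genes, 8 of the 23413 gene symbols counted, and all 8 had enough counts to be tested. RNA-seq of brain cortex was done on 7 APP/PS1 mice at 13 months of age, after 7 months on a control diet (CD, 4 mice) or a ketogenic diet (KD, 3 mice). CD gave 74% of its energy as carbohydrate, 10% as protein and 16% as fat, and KD gave less than 0.5% as carbohydrate, 10% as protein and 90% as fat. Mice of both groups carried the mutant human APPswe and PSEN1dE9 transgenes, which in this line are driven by a prion protein promoter, and were housed 1 to a cage from the start of the diets at 6 months. The comparison therefore holds no wild-type mice. The study used both sexes, and the sex behind each library is not given in the labels.

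Several kinds of inward rectifier meet in the cortex. Kir2 channels (Kcnj2, Kcnj4) rectify strongly and are open at rest in neurons and in other cells. Kir3 channels (Kcnj3, Kcnj6, Kcnj9), also called GIRK channels, open when the beta and gamma subunits of Gi/o proteins are released by receptors such as those for GABA and adenosine, and so slow neuronal firing. ATP-sensitive (KATP) channels join Kir6.2, the product of Kcnj11, to SUR1 and close when cellular ATP is high, which ties the excitability of a neuron to its fuel supply. Kir5.1, the product of Kcnj16, forms no known functional channel alone in most cells and joins Kir4.1 (Kcnj10), the main potassium channel of astrocytes, to make a channel sensitive to pH.

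All Kir subunits share a short pore loop that holds the potassium selectivity filter. Its codons are shown because they mark the kinship of the members and the place where the KATP pore departs from the rest. Each window of 45 bases was read from the GENCODE M21 transcripts (mm10), 5′ to 3′ on the coding strand, with the last 3 codons of the filter in capitals:
Kcnj3 (chr2:55437606-55437650, plus strand): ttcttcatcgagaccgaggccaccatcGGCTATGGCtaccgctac
Kcnj6 (chr16:94832768-94832812, minus strand): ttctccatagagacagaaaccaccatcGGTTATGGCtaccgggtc
Kcnj9 (chr1:172326175-172326219, minus strand): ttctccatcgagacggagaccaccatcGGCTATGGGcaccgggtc
Kcnj2 (chr11:111072186-111072230, plus strand): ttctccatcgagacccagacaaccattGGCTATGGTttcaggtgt
Kcnj4 (chr15:79485358-79485402, minus strand): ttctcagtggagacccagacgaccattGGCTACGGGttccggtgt
Kcnj16 (chr11:111024883-111024927, plus strand): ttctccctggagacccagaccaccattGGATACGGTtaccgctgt
Kcnj10 (chr1:172369281-172369325, plus strand): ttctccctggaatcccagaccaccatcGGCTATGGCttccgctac
Kcnj11 (chr7:46099487-46099531, minus strand): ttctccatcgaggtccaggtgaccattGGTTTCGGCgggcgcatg
Among the 7 Kir members 6, and Kcnj10 besides, spell glycine, tyrosine and glycine there, and Kcnj11 spells phenylalanine in the middle. Kcnj6 and Kcnj9 were the most alike, with 39 of 45 bases identical. Kcnj2 and Kcnj4 shared 38 of 45 bases, as did Kcnj4 and Kcnj16, while Kcnj11 shared 27 to 29 bases with any other window. Over whole transcripts, the longest identical run between a member and another gene of the family was 37 bases, shorter than a read of 50 bases, except for a run of 78 bases between Kcnj16 and Kcnj15. Kcnj15 had 0 to 4 counts per library.

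Several of the genes lie side by side in the genome (GENCODE M21, mm10). Kcnj11 (chr7:46093953-46100764) and Abcc8 (chr7:46104523-46180033) lie 3.76 kb apart on the minus strand. Kcnj16 (chr11:110968033-111027968) and Kcnj2 (chr11:111066164-111076821) lie 38.2 kb apart on the plus strand. Kcnj9 (chr1:172320501-172329318, minus strand) lies 11.9 kb from Kcnj10 on the opposite strand. Kcnj3 is at chr2:55435970-55598145 on the plus strand, and Kcnj4 (chr15:79483714-79505241) and Kcnj6 (chr16:94748636-94997701) are on the minus strand. Exons of Kcnj3, Kcnj6, Kcnj9 and Abcc8 overlap the spans of antisense or non-coding genes on the other strand (Gm26794, Gm41505, Gm36937 and Gm45486). None of these has its own row in the count tables, and overlap with their exons was not examined. The strand setting of the counting is not given in the sources used here, so reads from any stretch transcribed on both strands cannot be told apart.

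The libraries held 22272883 to 36614954 counts, with both extremes of depth set by 1 library of each diet, KD 3 and CD 4. The same pair stood apart on the first principal component of log2 CPM (counts scaled to library size), at 46.7 and 39.5 against -25.2 to 2.39 for the rest. Markers of the excitatory cortex were present in every library, with a summed level of 1223 to 1869 CPM over 6 genes. Summed hippocampus, thalamus and meninges markers were raised in CD 4 and KD 3, and oligodendrocyte markers stood at 1071 CPM in CD 3 and 1101 CPM in KD 3 against 2111 to 4165 CPM elsewhere. Striatum markers summed to 327 CPM in KD 3 and to 124 to 201 CPM in the other libraries. Olfactory bulb markers were at 64.3 CPM in CD 4 and 16.3 CPM in KD 3, against 3.76 to 8.92 CPM elsewhere. Xist, which is transcribed from the inactive X chromosome, was at 0.31 to 3.08 CPM in CD 3, CD 4 and KD 3 and at 248 to 531 CPM in the other libraries. Bulk RNA cannot tell fewer cells of a type from less RNA per cell.

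The 8 genes covered an 11.4-fold range of levels once counts were divided by exon length. The lengths were those of GENCODE M21, while the annotation behind the counts is not given, so the order of the genes depends on that choice. Kcnj4 and Kcnj9 led, with 39.2 and 33.6 CPM per kilobase of exon on average over the 7 libraries. Kcnj3 followed at 17.5, Kcnj11 and Kcnj2 at 10.7 each, Kcnj16 at 7.49, Kcnj6 at 6.52 and Abcc8 at 3.44 CPM per kilobase. The ranges of Kcnj4 and Kcnj9 overlapped, as did those of Kcnj11 and Kcnj2 and those of Kcnj16 and Kcnj6, so these neighbours could not be ordered beyond their spread. Every library ranked Kcnj9 above Kcnj3, Kcnj3 above Kcnj11, Kcnj2 above Kcnj16 and Kcnj6 above Abcc8.

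**Figure D1:**
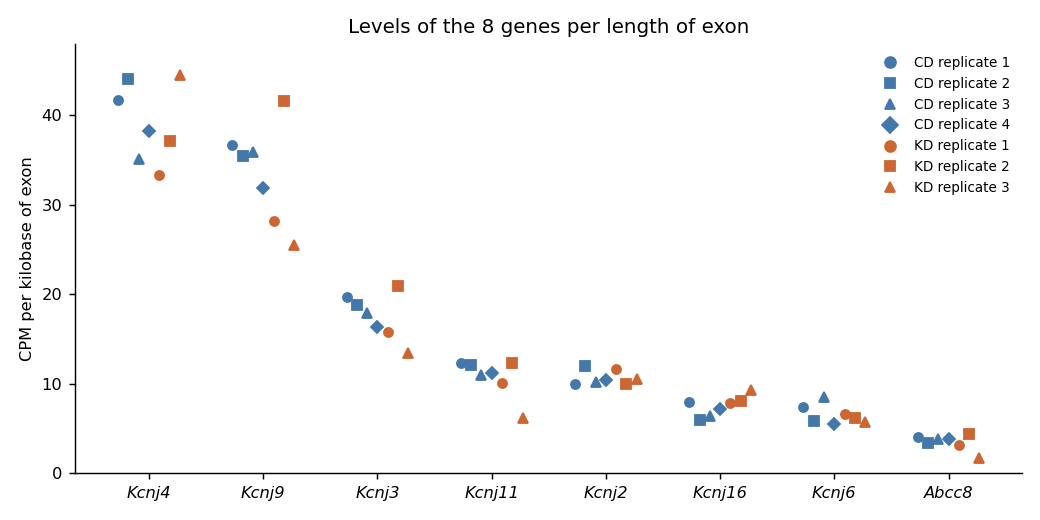
Levels of the 8 genes as CPM per kilobase of exon (vertical axis), 1 point for each library, with CD in blue and KD in orange and a symbol for each replicate. Kcnj4 and Kcnj9 lie highest, at means of 39.2 and 33.6, and Abcc8 lowest, at 3.44.

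The mixture of transcripts within each channel family was measured per kilobase on both diets. Kcnj9 made up 58.2% ± 0.87 (SD, n = 4) of the Kir3 transcripts in CD and 57.4% ± 2.41 (SD, n = 3) in KD. Kcnj3 made up 30.2% ± 1.119 and 30.4% ± 0.52, Kcnj6 11.2% ± 1.81 and 11.5% ± 2.34, and Kcnj5, the subunit best known from the heart atrium, 0.31% ± 0.15 and 0.67% ± 0.17. Among Kir2 transcripts, Kcnj4 held 67.4% to 74.6% and Kcnj2 17.7% to 23.6% over all libraries. Kcnj11 accounted for 88.4% to 91.8% of Kir6 transcripts, the remainder being Kcnj8 (Kir6.1), the vascular pore subunit. Abcc8 accounted for 67.2% to 77.6% of the sulfonylurea receptor transcripts, the remainder being Abcc9 (SUR2). These shares were not tested and rest on the same exon lengths.

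The comparison of the diets asked whether long ketogenic feeding was accompanied by a different level of these channels. In the quasi-likelihood test of edgeR, with p-values adjusted after Benjamini and Hochberg over 15881 genes, none of the 8 passed an adjusted p under 0.05, and neither did any other gene (0.0% of those tested, smallest adjusted p 0.979). At an unadjusted p under 0.05, 1 of the 8 was called (Kcnj16, higher in KD), where 3.19% of all tested genes were called in either direction and 1.66% as higher in KD. None reached the study's threshold of an unadjusted p of at most 0.01, where the share over all genes was 0.321%. For none of the 8 were the CD and KD ranges separate, against 4.11% of all tested genes (2.05% with KD higher and 2.07% with KD lower). The log2 fold change of KD over CD was below 0 for 6 of the 8 and above 0 for 2, against 51.0% and 49.0% of all genes, and its median was -0.13 against -0.00329 over all genes. For 6 of the 8 the 95% interval of the fold change lay wholly within 1.5-fold in either direction. The intervals of Kcnj11 and Abcc8 reached below that bound.

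**Figure D2:**
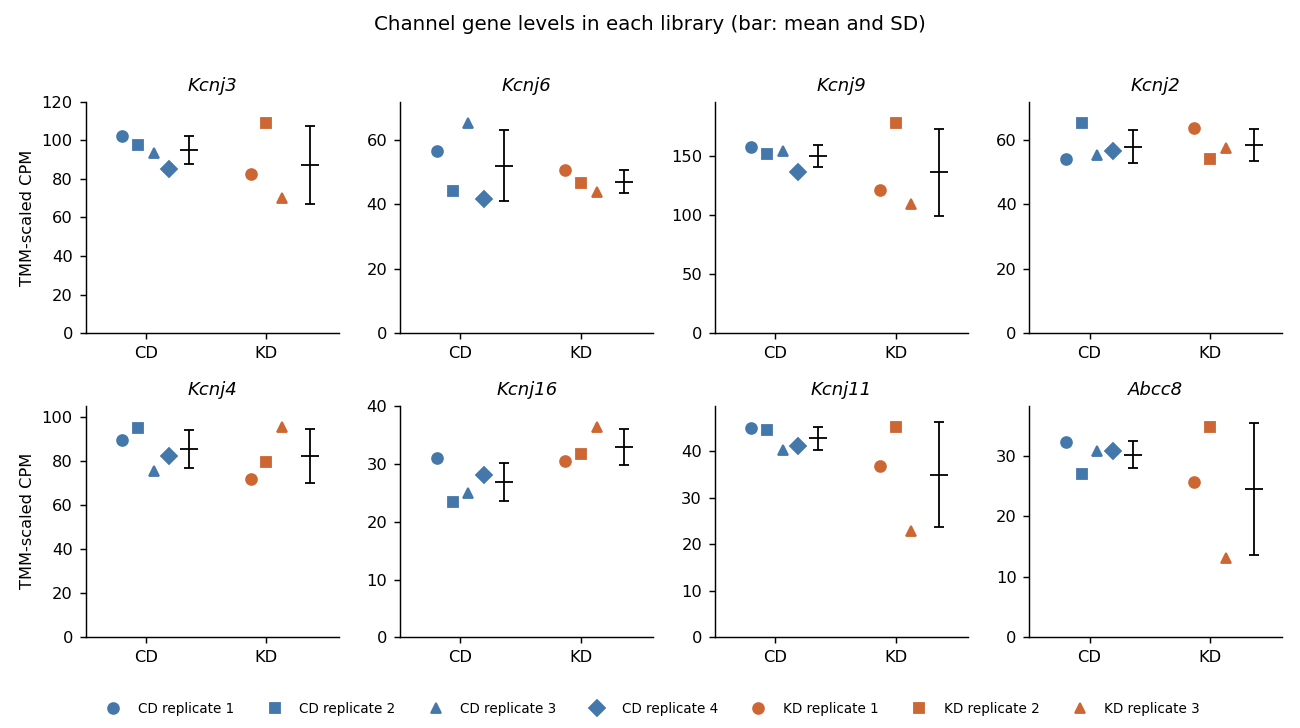
Library-scaled CPM of each gene (vertical axes start at 0) in the 4 CD libraries (blue) and the 3 KD libraries (orange), with a symbol for each replicate and the group mean with its SD beside the points. The groups overlap for every gene. KD 2 is the highest and KD 3 the lowest library for Kcnj3, Kcnj9, Kcnj11 and Abcc8.

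**Figure D3:**
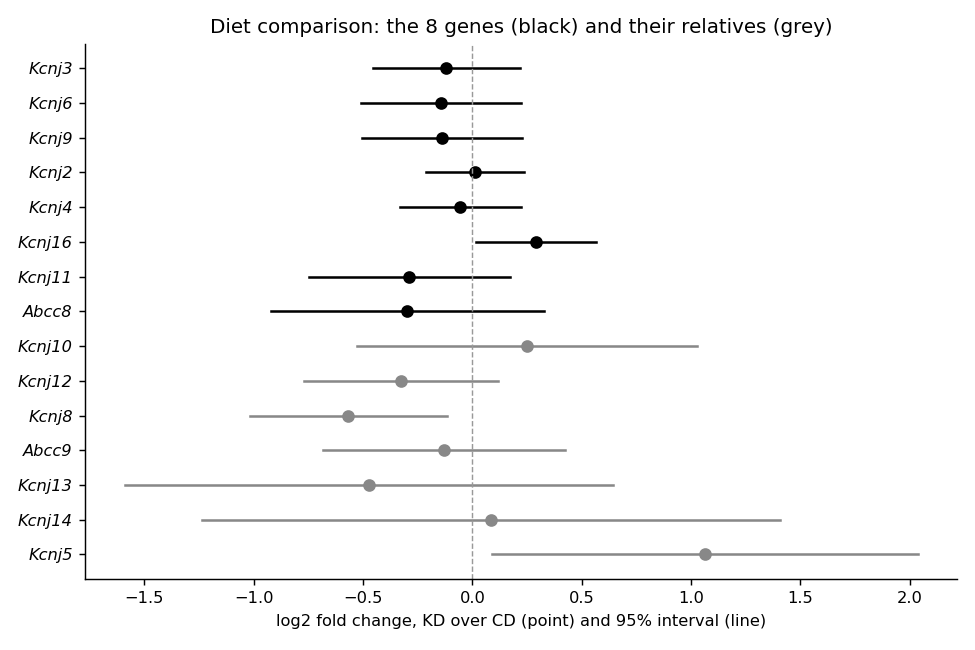
Log2 fold change of KD over CD (points) with its 95% interval (lines) for the 8 genes in black and for 7 related genes in grey. The interval excludes 0 for Kcnj16 alone among the 8, at 0.02 to 0.57, and for Kcnj8 and Kcnj5 among the relatives.

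Kcnj3 encodes Kir3.1, the subunit that needs a partner to reach the cell surface. Its level was 102, 97.8, 93.4 and 85.3 CPM in CD 1 to 4 and 82.3, 109 and 70.1 CPM in KD 1 to 3. KD 1 and KD 3 lay below every CD library and KD 2 above every one, so the groups overlapped. The log2 fold change of KD over CD was -0.12 ± 0.15 (SE), with a 95% interval of the fold from 0.730 to 1.16 (edgeR, adjusted p = 0.982).

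Kcnj9 encodes Kir3.3, which carries a lysosomal sorting signal and lowers the surface number of the channels it joins. It stood at 158, 152, 154 and 137 CPM in CD and at 121, 178 and 109 CPM in KD. The KD libraries took the same places as for Kcnj3, with KD 2 above and the others below the whole CD group. KD over CD gave a log2 fold change of -0.14 ± 0.16 (SE) and a fold interval of 0.705 to 1.17 (edgeR, adjusted p = 0.979). Across the 7 libraries the log2 CPM of Kcnj3 and Kcnj9 had a correlation of 0.975 (Pearson, n = 7, described without a test), and 0.956 without KD 3. The count of Kcnj9 was 1.47 to 1.65 times that of Kcnj3 in every library.

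Kcnj6 encodes Kir3.2, the subunit that can form a channel on its own and carries the GIRK current of many neurons. It measured 56.4, 44.1, 65.2 and 41.6 CPM in CD and 50.6, 46.6 and 43.7 CPM in KD. All 3 KD libraries fell inside the wider CD range. Between the diets the log2 fold change was -0.14 ± 0.16 (SE), with a fold interval of 0.702 to 1.17 (edgeR, adjusted p = 0.979). Kcnj6 did not take the places of the other Kir3 genes, with correlations of 0.308 to Kcnj3 and 0.313 to Kcnj9 over the 7 libraries.

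The subunit balance of the Kir3 family was compared as a log2 ratio of counts within each library, which does not depend on library scaling. The ratio of Kcnj9 to Kcnj3 was 0.67 ± 0.05 (SD) in CD and 0.64 ± 0.08 in KD (difference -0.03, exact permutation test, two-sided, p = 0.6). That of Kcnj6 to Kcnj3 was -0.89 ± 0.28 in CD and -0.87 ± 0.31 in KD (difference 0.02, exact permutation test, two-sided, p = 1.0). Of the 5 ratios tested, each had an adjusted p of 1.0, and the smallest p that the 35 splits of 7 libraries can give is 0.0286. The difference in Kcnj9 over Kcnj3 was smaller than the SD of either group.

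Kcnj2 encodes Kir2.1, the channel that sets the resting potential of many excitable cells. It was at 54.1, 65.3, 55.4 and 56.7 CPM in CD and at 63.6, 54.0 and 57.4 CPM in KD. The groups overlapped nearly completely, and the means differed by less than the SD of either (57.9 ± 5.06 and 58.3 ± 4.84 CPM). Its log2 fold change was 0.01 ± 0.10 (SE; edgeR, adjusted p = 0.995). The 95% interval of the fold, 0.863 to 1.18, was the narrowest among the 8.

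Kcnj4 encodes Kir2.3, a forebrain channel held at synapses by PDZ scaffold proteins. Its values were 89.7, 94.95, 75.5 and 82.3 CPM in CD and 71.8, 79.9 and 95.8 CPM in KD. KD held both the lowest and the highest library. The diets differed by a log2 fold change of -0.05 ± 0.12 (SE), with a fold interval of 0.795 to 1.17 (edgeR, adjusted p = 0.985). The log2 ratio of Kcnj4 to Kcnj2 averaged 0.56 ± 0.12 (SD) in CD and 0.49 ± 0.29 in KD (exact permutation test, two-sided, p = 0.8), with the lowest ratio in KD 1 and the highest in KD 3.

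Kcnj11 encodes the KATP pore. Its level was 45.1, 44.5, 40.1 and 41.2 CPM in CD and 36.8, 45.3 and 22.8 CPM in KD. KD 3 was by far the lowest library, KD 1 was slightly below the CD range and KD 2 slightly above it. KD over CD gave a log2 fold change of -0.29 ± 0.20 (SE), with a fold interval of 0.595 to 1.13 (edgeR, adjusted p = 0.979). It was -0.06 without KD 3 and -0.52 without KD 2.

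Abcc8 encodes SUR1, which gives the channel its sensitivity to ADP and to sulfonylurea drugs. It measured 32.2, 26.98, 30.8 and 30.9 CPM in CD and 25.7, 34.9 and 13.1 CPM in KD. KD 3 again lay far below all other libraries, KD 1 just under the CD range and KD 2 above it. The log2 fold change came to -0.30 ± 0.27 (SE), with a fold interval of 0.527 to 1.26 (edgeR, adjusted p = 0.979). It was -6.63e-05 without KD 3 and -0.64 without KD 2. These were the lowest and the highest library, so leaving either out moves the value by construction. Kcnj11 and Abcc8 had a correlation of 0.963 over the 7 libraries and 0.615 without KD 3. Their log2 ratio averaged 0.50 ± 0.15 (SD) in CD and 0.56 ± 0.21 in KD (exact permutation test, two-sided, p = 0.6).

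Kcnj3, Kcnj9, Kcnj11 and Abcc8 thus ordered the KD mice alike. For each of these 4 genes KD 2 was above every CD library while KD 1 and KD 3 were below every one, an arrangement found in 0.730% of all tested genes (116 genes). This arrangement was noticed in the values and was not tested. With KD 2 left out, the log2 fold changes were -0.31 for Kcnj3, -0.38 for Kcnj9, -0.52 for Kcnj11 and -0.64 for Abcc8, each at an unadjusted p under 0.05 and an adjusted p = 0.969 in edgeR's quasi-likelihood test. In that fit 4.56% of 16087 genes had an unadjusted p under 0.05, 1.96% with KD lower. The 4 genes were picked for KD 2 lying above CD, so leaving it out moves them down by construction and nothing is read from these calls. With KD 3 left out instead, their log2 fold changes lay between -0.06 and 0.01. KD 3 was the lowest library for each of the 4, so this shift upward is also by construction. Summed upper-layer markers were highest in KD 2, at 1069 CPM, against 710 and 823 CPM in KD 1 and KD 3 and 430 to 907 CPM in CD. Of these 6 markers, 4 had a log2 fold change below 0, and 2 (Calb1 and Rasgrf2) were above it, at 0.78 and 0.49. Summed interneuron markers (6 genes, none at 0 in all libraries) were at 735 to 842 CPM in KD and 853 to 1020 CPM in CD. Of these genes 4 had a log2 fold change below 0, and 2 (Gad2 and Sst) were above it. Gad1 led the sum, at 546 ± 79.6 CPM (SD) in CD and 421 ± 23.4 CPM in KD. The part of these cell types in the result was not tested.

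**Figure D4:**
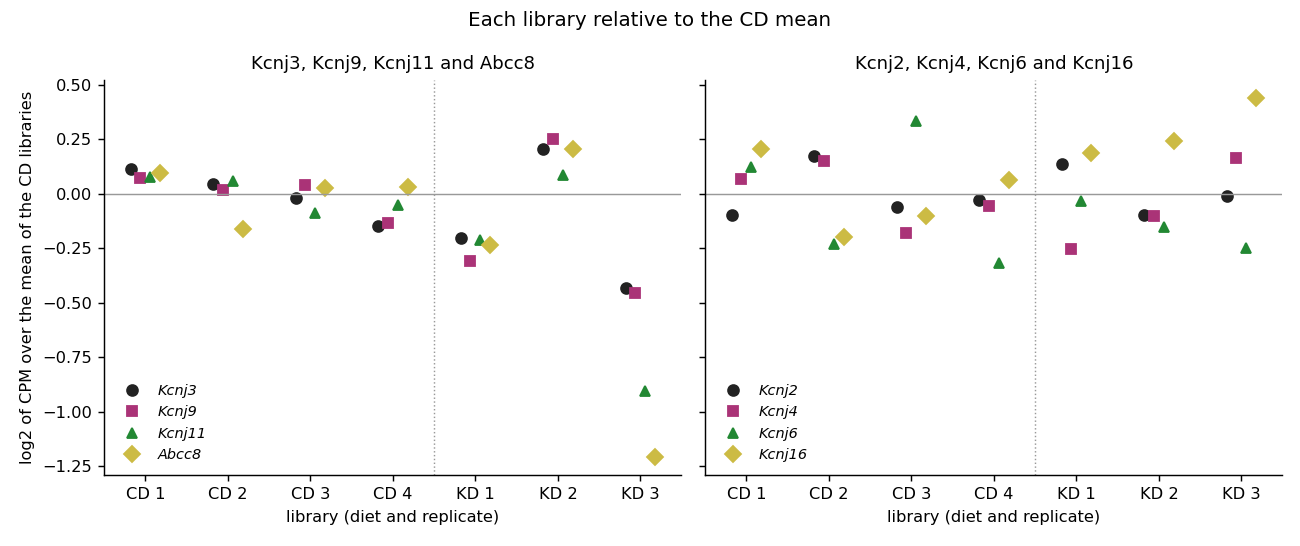
Log2 of each library's CPM over the mean of the 4 CD libraries (vertical axis) for the 8 genes, 4 in each panel, with CD to the left and KD to the right of the dotted line. On the left, Kcnj3, Kcnj9, Kcnj11 and Abcc8 lie below 0 in KD 1 and KD 3 and above 0 in KD 2, with Kcnj11 and Abcc8 much lower than the other genes in KD 3, and on the right Kcnj16 lies above 0 in each KD library.

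The promoters of Kcnj3 and Kcnj9 are shown as those of the pair that moved most closely together, 250 bases before to 50 bases after the RefSeq start (GRCm38.p6, gene strand), with the motifs found in capitals:
Kcnj3 promoter (chr2:55435720-55436019, plus strand): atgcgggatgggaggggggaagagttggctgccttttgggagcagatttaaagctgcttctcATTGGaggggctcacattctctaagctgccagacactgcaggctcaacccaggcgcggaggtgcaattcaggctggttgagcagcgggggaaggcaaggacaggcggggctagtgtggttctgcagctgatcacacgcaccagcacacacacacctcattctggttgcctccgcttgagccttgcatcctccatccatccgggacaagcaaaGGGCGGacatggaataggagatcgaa
Kcnj9 promoter (chr1:172329273-172329572, minus strand): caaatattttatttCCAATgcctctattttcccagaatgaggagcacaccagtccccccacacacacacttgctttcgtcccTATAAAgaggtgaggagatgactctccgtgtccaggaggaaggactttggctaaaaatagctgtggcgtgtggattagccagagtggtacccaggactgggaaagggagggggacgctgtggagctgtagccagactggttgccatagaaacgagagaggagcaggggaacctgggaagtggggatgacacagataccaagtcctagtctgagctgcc
The motifs searched, on both strands, were the CRE half-site TGACG, the GC box GGGCGG, the E-box CACGTG, the CCAAT box CCAAT and the TATA box TATAAA. Kcnj3 held 1 match to the GC box and 1 to the CCAAT box, and Kcnj9 held 1 to the CCAAT box and 1 to the TATA box, without overlaps. The letters were matched anywhere in the window, so a match does not show a working promoter element. Of 32851 promoters of that length, 35.7% held the GC box, 37.4% the CCAAT box, 13.6% the TATA box, 20.8% the CRE half-site and 7.15% the E-box. The CCAAT box, alone among these motifs in matching both promoters, is a common match.

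Kcnj16 was the only one of the 8 with an unadjusted p under 0.05. It measured 31.0, 23.5, 25.0 and 28.1 CPM in CD and 30.6, 31.8 and 36.5 CPM in KD. KD 2 and KD 3 lay above every CD library and KD 1 just below CD 1, so the groups overlapped. The means were 26.9 ± 3.35 CPM (SD, n = 4) and 33.0 ± 3.12 CPM (SD, n = 3). The log2 fold change was 0.29 ± 0.12 (SE), with a fold interval of 1.01 to 1.48, and edgeR's quasi-likelihood test gave an unadjusted p of 0.0399 and an adjusted p = 0.979. It was above 0 in all 18 alternative settings, from 0.21 to 0.37, and kept an unadjusted p under 0.05 in 11 of them. It lost that call without CD 2, CD 3, KD 2 or KD 3, with log2 fold changes of 0.23, 0.26, 0.32 and 0.21, and also with library size as the only scaling and in the likelihood-ratio test of edgeR.

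Kcnj10, the astrocyte partner of Kcnj16, behaved otherwise. It stood at 72.0, 58.1, 51.5 and 54.3 CPM in CD and at 112, 64.9 and 33.1 CPM in KD, so KD held both extremes. KD over CD gave a log2 fold change of 0.25 ± 0.34 (SE; edgeR, adjusted p = 0.982). It was 0.59 without KD 3, with an unadjusted p under 0.05, and -0.27 without KD 1. The count of Kcnj16 was 0.404 to 0.517 times that of Kcnj10 in CD, and 0.272, 0.490 and 1.10 times in KD 1 to 3. The mean log2 ratio was -1.13 ± 0.16 (SD) in CD and -0.92 ± 1.01 in KD (exact permutation test, two-sided, p = 0.714), and the KD libraries lay on both sides of the CD range. The summed level of 10 astrocyte markers, which do not include Kcnj10, was 7137, 5739 and 4495 CPM in KD 1 to 3 and 5015 to 5705 CPM in CD, and most of its spread came from Slc1a2, at 5231, 4049 and 2827 CPM in KD. The other 9 markers, summed without Slc1a2 after the values were seen, were at 1905, 1691 and 1667 CPM in KD 1 to 3 and 1490 to 1858 CPM in CD, a far narrower spread than that of Kcnj10. The part of astrocyte content in either gene was not tested.

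**Figure D5:**
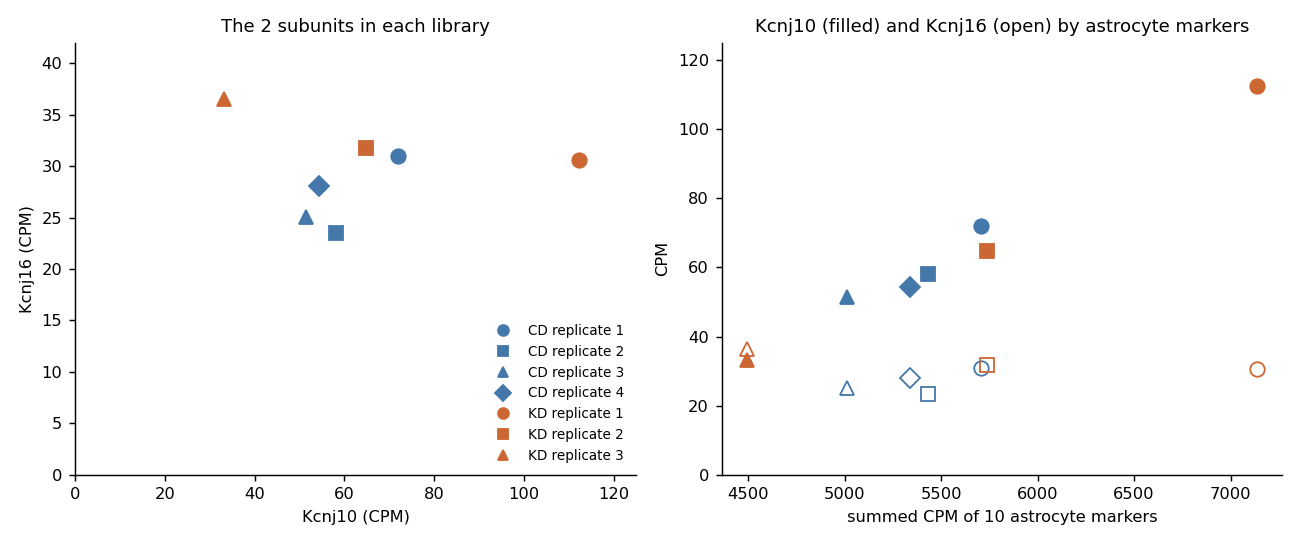
Left, Kcnj16 against Kcnj10 (both in CPM) in each library, and right, Kcnj10 (filled) and Kcnj16 (open) against the summed CPM of 10 astrocyte markers. CD is blue and KD orange, with a symbol for each replicate. Kcnj10 runs from 33.1 CPM in KD 3 to 112 CPM in KD 1 while Kcnj16 stays between 23.5 and 36.5 CPM, and the spread of the marker sum is mostly that of Slc1a2.

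Of the 9 other genes of the family, 7 had enough counts to be tested and 2 had an unadjusted p under 0.05, against 3.19% of all tested genes. Kcnj8, the vascular KATP pore, was lower in KD, at 3.60, 3.56, 3.51 and 3.74 CPM in CD and 2.46, 2.78 and 2.04 CPM in KD (46 to 142 counts). The groups did not overlap, which held for 4.11% of all tested genes and, with KD lower, for 2.07%. The log2 fold change was -0.57 ± 0.20 (SE), with an unadjusted p of 0.0196 and an adjusted p = 0.979 in edgeR. Without KD 3 it was -0.46 and was not called. Summed markers of mural cells, which are known to carry Kcnj8, were at 130 to 131 CPM in KD and at 142, 114, 136 and 248 CPM in CD 1 to 4. All 7 genes of that list had a log2 fold change below 0, and Vtn was the most abundant, at 72.9 ± 45.9 CPM (SD) in CD and 51.3 ± 7.36 CPM in KD. The part of mural cells in the level of Kcnj8 was not tested. Kcnj5 was higher in KD, by 1.06 ± 0.43 (SE) on the log2 scale with an unadjusted p of 0.0355 and an adjusted p = 0.979 in edgeR, on 19 to 92 counts per library. It was not called without CD 1, CD 2, CD 3, KD 1 or KD 2, with log2 fold changes of 0.60 to 1.16, nor with Xist as a covariate. Kcnj12, another Kir2 subunit, had a log2 fold change of -0.33 ± 0.19 (SE), Kcnj13 of -0.47 ± 0.49, Kcnj14 of 0.09 ± 0.58 and Abcc9 of -0.13 ± 0.24, and none of these was called. Exons of Kcnj13 and Abcc9 overlap the spans of genes on the other strand (Gigyf2 and 5330439B14Rik). Whether they meet exons of those genes was not examined, so their counts are less certain. Kcnj1 had 0 to 1 counts per library and Kcnj15 0 to 4, and neither was tested.

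The partners of these channels were counted in 8 lists. Of 24 tested receptors that open Kir3 channels, 13 were above and 11 below a log2 fold change of 0, with a median of 0.03 and none at an unadjusted p under 0.05. Gabbr1, a subunit of the GABA-B receptor and the most abundant of them, was at 794 ± 83.5 CPM (SD) in CD and 835 ± 62.3 CPM in KD. Of 18 Gi/o protein subunits 13 were above 0 and 5 below (median 0.07, none called), with Gnb1, a beta subunit, leading at 657 ± 43.5 and 687 ± 13.6 CPM. Of 16 regulators of Kir3 signals 13 were above and 3 below 0 (median 0.11, none called), and the most abundant, Rgs4, which speeds the shut-off of G proteins, had a log2 fold change of -0.01 ± 0.39 (SE). These 3 lists held no gene past the threshold, where 3.19% of all tested genes were.

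For Kir2, 9 of 10 genes of PDZ anchors and their partners were above 0 (median 0.08, none called), with Dlg2 at 398 ± 34.9 CPM in CD and 451 ± 41.7 CPM in KD (log2 fold change 0.18 ± 0.10, SE). The enzymes of PIP2, the membrane lipid that Kir channels need to open, split into 4 above and 7 below 0 (median -0.01, none called), and Plcb1 led them with a log2 fold change of 0.02 ± 0.15 (SE). The 6 KATP partners split evenly (median -0.03, none called). Rapgef4, a cyclic AMP sensor known to bind SUR1 and the most abundant of them, had a log2 fold change of 0.08 ± 0.24 (SE). Of 14 astrocyte genes of potassium, water and glutamate uptake, 7 were above and 7 below 0 (median -0.00456). The gap junction gene Gjb6 was called, with 65.1 ± 18.2 CPM (SD) in CD and 48.2 ± 3.31 CPM in KD (log2 fold change -0.43 ± 0.19, SE), at an unadjusted p of 0.0499 and an adjusted p = 0.979 in edgeR. That call was lost in 10 of 18 alternative settings, among them 3 other scalings, limma-voom and leaving out any KD library, and the log2 fold change was -0.22 without CD 4. The glutamate transporter gene Slc1a2 led that list at 3653 ± 147 and 4036 ± 1202 CPM. Of 10 tested K2P background channels, 8 were below 0 (median -0.18). Kcnk12 was called at 2.40 ± 0.44 CPM (SD) in CD and 1.37 ± 0.45 CPM in KD, with a log2 fold change of -0.81 ± 0.31 (SE), an unadjusted p of 0.0295 and an adjusted p = 0.979 in edgeR, and it was not called without CD 1 or KD 3. Kcnk1, the most abundant of them, had a log2 fold change of -0.05 ± 0.15 (SE). Over all tested genes, 3.19% were called and 51.0% were below 0.

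Outside the lists, the tested genes whose log2 CPM followed each member most closely over the 7 libraries were named by Pearson correlation, as a description. They included Cep76 (0.978) for Kcnj3, and were Nrip1 (0.979) and Tspan11 (0.970) for Kcnj9, Tbc1d30 (0.994) and Ccng1 (0.988) for Kcnj11, and Kremen1 (0.989) and Ptprm (0.988) for Abcc8. For Kcnj2 they were Lonp2 (0.981) and Tmbim4 (0.957), for Kcnj4 Xpnpep1 (0.975) and 1110012L19Rik (0.972), for Kcnj6 Msc (0.932) and Spc24 (0.929), and for Kcnj16 Mettl10 (0.959) and A830052D11Rik (0.933). With 7 libraries, 60 tested genes had a correlation above 0.95 with Kcnj11 and none with Kcnj6.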

How the data were processed

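Frozen cortex (10 mg a mouse) gave the RNA, of which 300 ng entered a stranded total RNA library kit, and fragments were sequenced for 50 bases from both ends. The authors used STAR both for alignment to mm10 and, through its built-in HTSeq mode, for counting, and the deposited values are raw counts for each gene symbol, without normalization or pooling. Versions, annotation and strand setting are not given in the sources used here. Diet and replicate came from the sample labels, which write SD for CD. The 8 genes, the gene lists and the tests were chosen with earlier results of these data known.

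Counts were analysed with edgeR 4.0.16 in R 4.3.3: filterByExpr by diet, TMM scaling, glmQLFit with robust=TRUE and glmQLFTest, without covariates, on 15881 genes holding 99.97% of counts, with Benjamini-Hochberg adjustment over all of them. Printed CPM values use TMM library sizes, and unadjusted p-values come from this fit unless another test is named. Levels per kilobase used the merged exon length of GENCODE M21. Log2 ratios of counts took 0.5 added to each count and exact permutation over 35 splits. Replicates are separate mice by the study's methods. Counts of any 2 replicates differed by 15.4 to 64.8 chi-square units per gene, where sampling noise gives 1, so none was a library deposited again. Totals of 22272883 to 36614954 counts gave each of the 8 genes 296 to 5958 counts per library. Named genes are the 8, their tested relatives, of each partner list the most abundant gene and those at an unadjusted p under 0.05, and the 2 genes most correlated with each of the 8, of which 1 is not reported here. The procedure was tested on simulated counts.

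Alternatives were RLE, upper-quartile and library-size scaling, filters of at least 1 count and of at least 1 CPM in 3 libraries, DESeq2 1.42.0, the likelihood-ratio test of edgeR, limma-voom (limma 3.58.1), log2 CPM of Xist as a covariate, a replicate block, another pseudocount of 1 for ratios, and leaving out each library or CD 4 and KD 3 together.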

Additional observations from a re-analysis of the deposited data

Results flagged for a closer look

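Among the 4 CD libraries, 36 values were examined for a library whose gap to its nearest neighbour exceeded Dixon's 95% critical value, and 5 were found, where chance flags about 1 in 20 groups (1.8 of 36). Abcc9, the second sulfonylurea receptor gene, was at a log2 CPM of 3.22 in CD 3 and higher in the other CD libraries. The upper-layer markers summed to 8.75 on the log2 scale in CD 4, the lowest of the group. The hippocampus markers summed to 7.47 and the thalamus markers to 7.48 in CD 4, the highest of the group in both cases. The oligodendrocyte markers summed to 10.1 in CD 3, the lowest of the group. None of the 8 channel genes and none of the 5 ratios was among them. The KD group of 3 could not be examined in this way.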

How the results depend on the processing

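The count of genes at an unadjusted p of at most 0.01 was 51, and it was 120 with DESeq2, 103 with the likelihood-ratio test, 208 with Xist as a covariate and 19 to 211 when 1 library was left out (19 without CD 1, 211 without CD 3). No gene passed an adjusted p under 0.05 except 1 each with the likelihood-ratio test and with Xist. Of the 8 channel genes, 1 had an unadjusted p under 0.05 in the fit reported. The count was 0 with library size alone, 0 with the likelihood-ratio test, 2 with Xist (Kcnj11, at -0.37, besides Kcnj16), 0 without CD 4 and KD 3, and 0 to 4 when 1 library was left out. It was 0 without CD 2, CD 3 or KD 3, where 2.13%, 7.38% and 2.22% of all tested genes were called, and 4 without KD 2, where 4.56% were. That share was 3.24% with library size alone, 3.14% with the likelihood-ratio test, 6.52% with Xist and 2.54% without CD 4 and KD 3.

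Same-numbered mice share only a number: the correlations of their deviations were 0.251, 0.195 and 0.098, and of the KD libraries KD 1 correlated best with the CD library of its own number, while KD 2 and KD 3 correlated better with another. With the replicate block, 184 genes reached an unadjusted p of at most 0.01. At an unadjusted p under 0.05, 1 of the 8 genes was called, against 5.88% of all tested genes. The KD minus CD difference in the log2 ratio of Kcnj6 to Kcnj3 turned to -0.0297. The block also turned the log2 fold changes of Kcnj14 (-0.28), Gabbr1 (-0.000499), Plcb1 (-0.0872) and Rapgef4 (-0.0587).

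Several other values changed sign, and the cause was not tested. With 1 library left out, log2 fold changes ran from -0.0552 to 0.0744 for Kcnj2, -0.31 to 0.0129 for Kcnj3, -0.18 to 0.0357 for Kcnj4, -0.27 to 0.59 for Kcnj10, -0.57 to 0.47 for Kcnj14, -0.35 to 0.13 for Abcc9, -0.33 to 0.26 for Rgs4, -0.12 to 0.15 for Plcb1, -0.0571 to 0.26 for Rapgef4, -0.0877 to 0.34 for Slc1a2 and -0.22 to 0.0811 for Kcnk1. The KD minus CD differences in log2 ratio ran from -0.0752 to 0.20 for Kcnj6 over Kcnj3 and -0.0654 to 0.0102 for Kcnj9 over Kcnj3. Those differences ran from -0.19 to 0.0873 for Kcnj4 over Kcnj2, -0.0521 to 0.16 for Kcnj11 over Abcc8 and -0.33 to 0.68 for Kcnj16 over Kcnj10. Without CD 4 and KD 3, Abcc8 was at 0.0174, Kcnj14 at -0.78, Abcc9 at 0.16, Gabbr1 at -0.0433, Rgs4 at 0.0209 and Kcnk1 at 0.0455. In that setting the differences in log2 ratio were -0.12 (Kcnj6 over Kcnj3), -0.0809 (Kcnj11 over Abcc8) and -0.27 (Kcnj16 over Kcnj10). With limma-voom, Kcnj14 was at -0.002385 and Rgs4 at 0.0136, and with Xist Plcb1 was at -0.0132. Of 449 values over 25 named genes, 380 kept their direction and their side of the threshold, 33 changed sign, 28 lost and 8 gained an unadjusted p under 0.05.

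With 4 mice against 3 and both diets including a library that stood apart, changes within the intervals given could not be detected, and intervals cover the spread between mice only.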
